A study of Mus musculus with 19 samples.

Results

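The 8 genes described here mark the steps from progenitor to immature sensory neuron: Sox2, Neurog1, Neurod1, Nhlh1, Nhlh2, Gap43, Stmn2 and Dcx. They were chosen by name, with earlier results of these data known. Their estimated read counts were summed per gene in every library, out of 35596 genes counted in all. The libraries hold polyA+ RNA of the whole vomeronasal organ (VNO), the pheromone-sensing organ of the nose, of mice labelled female at postnatal day 21. In each of 2 Cre lines, 3 libraries came from Smad4 conditional knockouts with the genotype Cre+/-/Smad4 flox/flox (cKO), 3 from Cre+/- heterozygotes that serve as controls (Het) and 3 from controls that the labels name Wild Type and the study's methods name Smad4 flox/flox. AP-2εCre is a knock-in at Tfap2e whose activity begins in vomeronasal sensory neurons (VSNs) of the basal type while they are immature, and OMPCre is a knock-in at Omp that drives recombination in mature VSNs of the apical and the basal type. Each Cre+/- mouse therefore carries 1 altered allele of the driver gene, in the Het and in the cKO groups alike. The labels name VSNs as the cell type, but the RNA came from the whole organ, so fewer cells of a type and less RNA per cell cannot be told apart.

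New VSNs form after birth from progenitors at the margins and base of the vomeronasal epithelium. Sox2 is a transcription factor of progenitor and supporting cells, Neurog1 and Neurod1 are proneural basic helix-loop-helix (bHLH) factors of committed precursors, and Nhlh1 and Nhlh2 are a pair of related bHLH factors of newly postmitotic neurons. Gap43 encodes a growth cone protein, Stmn2 a regulator of microtubule turnover in growing axons and Dcx (doublecortin) a microtubule-binding protein of migrating immature neurons. Smad4 is the partner that receptor-activated Smads of the BMP and TGFβ pathways share, and those pathways hold back proneural genes in several parts of the nervous system.

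The libraries held 43385516 to 134042284 estimated counts each (median 63096714), and the 8 genes had between 25 counts (the lowest Neurog1 library) and 27441 counts (the highest Nhlh1 library). Values are given as CPM, which are counts scaled to 1000000 per library after edgeR's TMM normalization over the 18 libraries with a group. Smad4 itself had 59.6 ± 4.39 CPM (SD, n = 3) in the OMPCre cKO libraries, 72.4 ± 7.05 in the Smad4 flox/flox controls and 79.2 ± 4.01 in the Het controls of that line. In the AP-2εCre line Smad4 had 55.5 ± 18.8 CPM in cKO libraries, 63.6 ± 21.5 in Smad4 flox/flox controls and 55.0 ± 21.5 in Het controls, so its level does not separate those groups. In that line Tfap2e, the driver gene of AP-2εCre, measured 15.3 ± 1.29 CPM in Smad4 flox/flox, 7.50 ± 1.83 in Het and 11.3 ± 1.22 in cKO libraries. Omp, which carries OMPCre, had 397 ± 85.3 CPM in the Smad4 flox/flox controls of its line, 237 ± 11.7 in Het controls and 259 ± 25.8 in cKO libraries. Omp, the marker of mature olfactory neurons, had a mean of 368 CPM over the libraries, and the vomeronasal channel gene Trpc2 had 106 CPM. The libraries carry 2 forms of name, a letter with a number (2 libraries of each group) or the line with a number (1 library of each group), and the log2 ratio of mean cKO to mean control CPM is given within each form for each of the 8 genes. Over all genes, each of the 9 libraries of the AP-2εCre line and of the 9 of the OMPCre line deviated from its group mean most like a library of its own form of name. The names do not say what the forms stand for.

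On the GRCm38 build, Sox2 (ENSMUSG00000074637.7) is a single-exon gene on chromosome 3, 34650405 to 34652461, that lies on the plus strand within the span of the noncoding gene Sox2ot, which was not analysed here. Neurog1 (ENSMUSG00000048904.5) is a single-exon gene on the minus strand of chromosome 13, 56250478 to 56252163. Neurod1 (ENSMUSG00000034701.9) is on the minus strand of chromosome 2, 79452521 to 79456751, and overlaps Cerkl on its own strand. Nhlh1 (ENSMUSG00000051251.3) is on the minus strand of chromosome 1, 172052292 to 172057573, and Nhlh2 (ENSMUSG00000048540.8) on the plus strand of chromosome 3, 102010076 to 102015492. Gap43 (ENSMUSG00000047261.9) is on chromosome 16, 42248442 to 42340651, Stmn2 (ENSMUSG00000027500.10) on chromosome 3, 8509360 to 8561606, and Dcx (ENSMUSG00000031285.14) on chromosome X, 143855842 to 143933311. Reads can be shared between genes that hold the same sequence, so the 31-base stretches of each gene's transcripts were compared with those of all other transcripts listed. Neurog1, Nhlh1 and Gap43 shared 0 such stretches with another gene. Nhlh2 shared 9 of 5414 (0.166%), Dcx 0.450%, Sox2 0.888% (with Sox1, Sox3 and Sox21), Stmn2 1.36%, and Neurod1 6.41%, of which part lies in Cerkl. Nhlh1 and Nhlh2 had no 31-base stretch in common, and their longest common run, shown because it bears on whether reads of this pair can be mixed up, has 20 bases inside the coding sequence of both. It starts at base 669 of the Nhlh1 transcript (coding bases 459 to 857) and at base 1139 of Nhlh2-201 (coding bases 923 to 1327):
Nhlh1 and Nhlh2 common run: cgcgccacggccaagtaccg

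The stretches just before the starts of Nhlh2 and Nhlh1 are shown because Nhlh2 was the only gene of the 8 whose cKO and control libraries did not overlap, and the libraries of its relative Nhlh1 did overlap. They come from the RefSeq table of GRCm38.p6 and end before both the RefSeq and the GENCODE starts. Nhlh2 is given for chr3:102009895-102010075 on the plus strand and Nhlh1 for chr1:172057597-172057846 on the minus strand. Capitals mark CAGATG, an E-box that proneural bHLH factors bind, and CAGAC, a Smad-binding word, on either strand (CATCTG and GTCTG on the other):
Nhlh2: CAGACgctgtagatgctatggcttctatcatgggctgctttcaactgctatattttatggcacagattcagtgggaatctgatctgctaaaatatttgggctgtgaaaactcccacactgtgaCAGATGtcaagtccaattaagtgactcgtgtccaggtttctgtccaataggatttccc
Nhlh1: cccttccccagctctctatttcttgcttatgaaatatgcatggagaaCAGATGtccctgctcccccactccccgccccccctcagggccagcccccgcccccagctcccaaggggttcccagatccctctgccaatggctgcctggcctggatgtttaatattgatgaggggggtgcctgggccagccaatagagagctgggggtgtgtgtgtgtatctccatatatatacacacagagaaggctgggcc
Both stretches hold 1 CAGATG, and the whole 300-base windows of the table, which run past the RefSeq starts, hold 1 CAGATG and 1 CAGAC for each gene. Over all 32851 promoter windows of that length, 17.2% hold CAGATG and 49.6% hold CAGAC on either strand. A match of letters is a description and not a binding site.

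TPM, the transcript abundance scaled by transcript length to a sum of 1000000 per library, was used to compare levels between genes. In the 12 control libraries of both lines, Stmn2 had 98.4 ± 21.1 TPM (SD, n = 12), Nhlh1 57.0 ± 8.65, Sox2 38.3 ± 6.01, Gap43 36.7 ± 4.31, Nhlh2 15.8 ± 3.29, Dcx 7.37 ± 1.95, Neurod1 2.81 ± 0.834 and Neurog1 0.576 ± 0.241. By this order Stmn2 was gene 988 of the organ by TPM, Nhlh1 1768, Sox2 2681 and Gap43 2793, and Neurog1 was below the 15264 genes with a mean of at least 1 TPM. The 2 early proneural factors were thus the lowest of the set. Each gene was above the next one in 12 of 12 control libraries, except that Sox2 was above Gap43 in 10 of 12, so those neighbours do not differ beyond their spread. The place of Stmn2 rests on a 308-base noncoding transcript, Stmn2-203, that received 53.4% of the gene's TPM and only 3.81% of its counts. The coding transcript Stmn2-201 alone had 43.4 ± 8.53 TPM in the 6 AP-2εCre controls and 49.0 ± 8.03 in the 6 OMPCre controls.

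**Figure D1:**
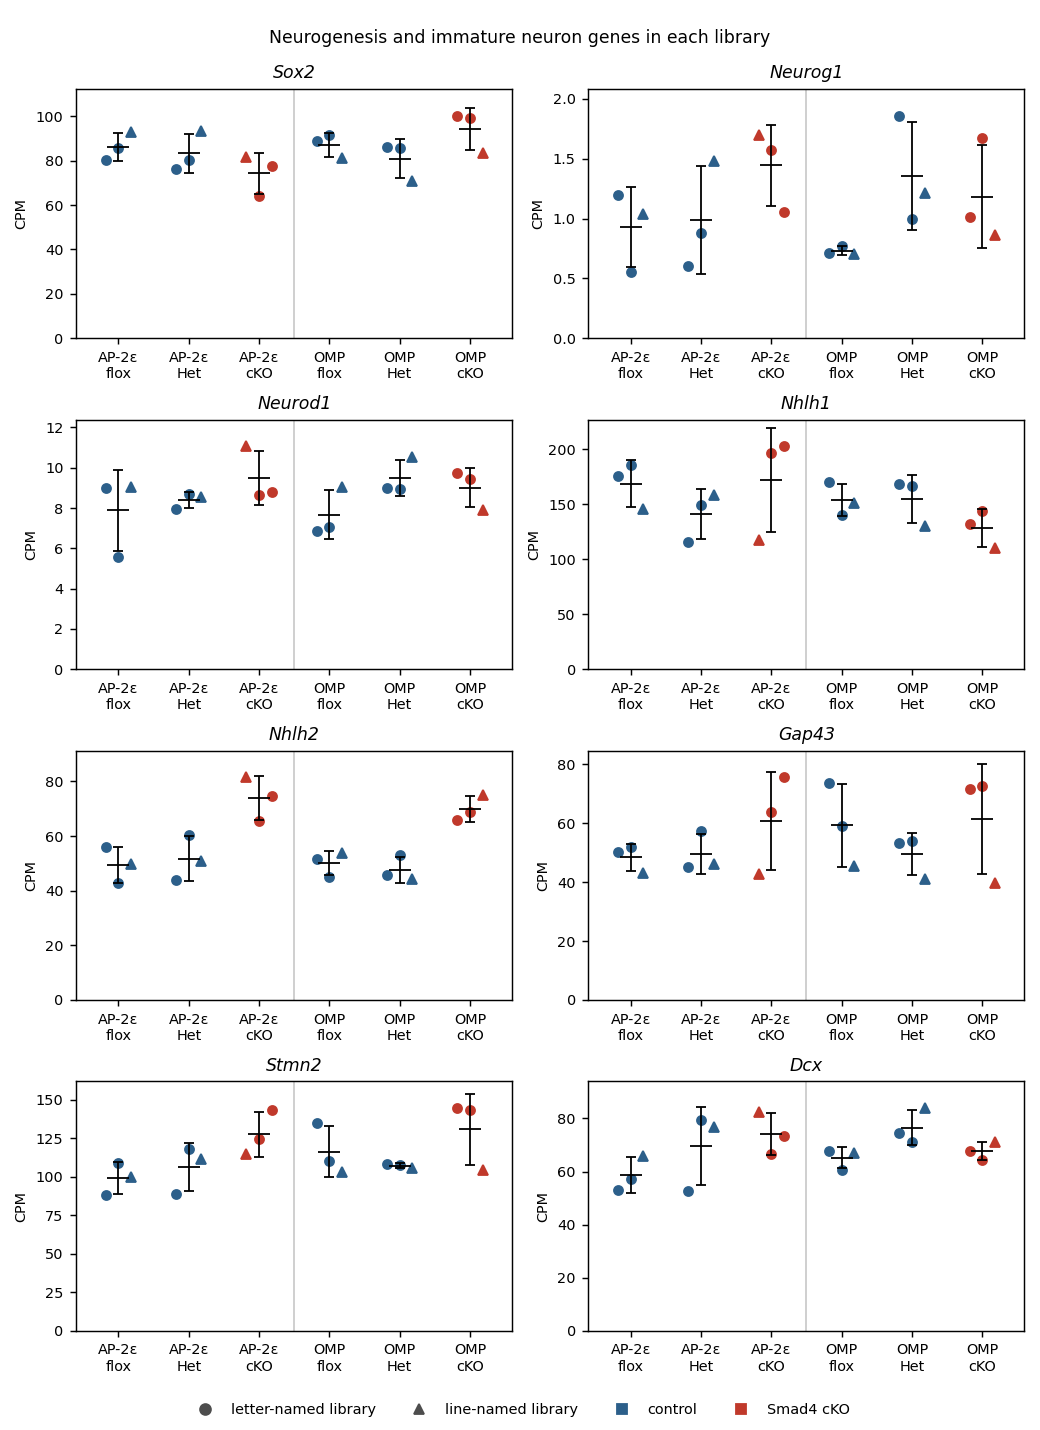
Expression of the 8 genes in CPM (linear axes from 0) in each library, by line and group; circles and triangles are libraries of the letter and the line form of name, red is Smad4 cKO, and black bars are the mean ± SD of 3 libraries. The red points of Nhlh2 lie above all controls of their line, and the triangle of Gap43 is the lowest point in each group but the AP-2εCre Het controls, where it is second lowest.

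Nhlh2 was higher in cKO libraries of both lines. For the AP-2εCre line the 3 cKO libraries held 81.5, 65.5 and 74.5 CPM of Nhlh2, the Smad4 flox/flox controls 55.8, 42.7 and 49.8 CPM and the Het controls 43.8, 60.5 and 50.9 CPM. The lowest cKO library was above the highest of the 6 controls (60.5 CPM). The OMPCre cKO libraries held 65.8, 68.9 and 75.0 CPM, their Smad4 flox/flox controls 51.6, 45.0 and 53.7 CPM and their Het controls 45.7, 52.9 and 44.1 CPM, again with no overlap. All 6 cKO libraries were thus above all 12 controls, and Nhlh2 was the only gene of the 8 with that pattern in either line. Of all genes tested, 2.29% were higher without overlap in the AP-2εCre line and 1.41% in the OMPCre line.

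The mean of the cKO libraries was 73.8 ± 8.01 CPM against 50.6 ± 6.84 in the AP-2εCre controls, a log2 fold change of 0.54 (SE 0.119; n = 3 and 6; two-sided exact permutation p = 0.012, the smallest that 84 splits allow). For OMPCre it was 69.9 ± 4.67 CPM against 48.8 ± 4.36, a log2 fold change of 0.52 (SE 0.0855; exact permutation p = 0.012). Within a single line Nhlh2 did not pass edgeR's quasi-likelihood test after Benjamini-Hochberg adjustment, with adjusted p = 0.257 in the AP-2εCre line (unadjusted 0.000952, rank 65 of 18495 genes) and 0.292 in the OMPCre line (unadjusted 0.000141, rank 9 of 18623 genes). That test called 0.0378% of genes in the AP-2εCre line and 0% in the OMPCre line, so 0 of the 8 genes were called in either. DESeq2 called Nhlh2 in both, at adjusted p = 0.00724 and 0.000265, where it called 1.67% and 0.228% of genes. At an unadjusted p under 0.05 edgeR had 10.2% and 3.95% of genes, and 2 of the 8 genes in each line, Nhlh2 and Stmn2 in the AP-2εCre line and Nhlh2 and Nhlh1 in the OMPCre line.

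Over both lines together the rise passed the test. The mean cKO effect of the lines was 0.53 on the log2 scale (SE 0.0751, a 1.44-fold higher level; edgeR adjusted p = 0.00545, rank 7 of 19465 genes). Nhlh2 was the only one of the 8 genes called in this comparison, which called 18 genes, or 0.0925% of those tested. Its exact permutation p over the 7056 joint splits of the lines was 0.000142, the smallest they allow. The effect was of nearly the same size in both lines, with a difference of 0.03 on the log2 scale (SE 0.153, edgeR adjusted p = 1). Nhlh2 was higher within both forms of library name. Among letter-named libraries the log2 ratio of mean cKO to mean control CPM was 0.47 in the AP-2εCre line and 0.46 in the OMPCre line, each from 2 cKO and 4 control libraries. Among line-named libraries it was 0.70 and 0.62, each from 1 cKO and 2 control libraries. With letter-named libraries alone, 12 of the 18, the mean effect over both lines was 0.46 and no longer passed edgeR's test (adjusted p = 0.304). Het and Smad4 flox/flox controls did not differ by more than their spread, with log2 differences of 0.06 (SE 0.147) in the AP-2εCre line and -0.08 (SE 0.103) in the OMPCre line, and the controls of the lines differed by 0.05 (SE 0.0922).

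**Figure D2:**
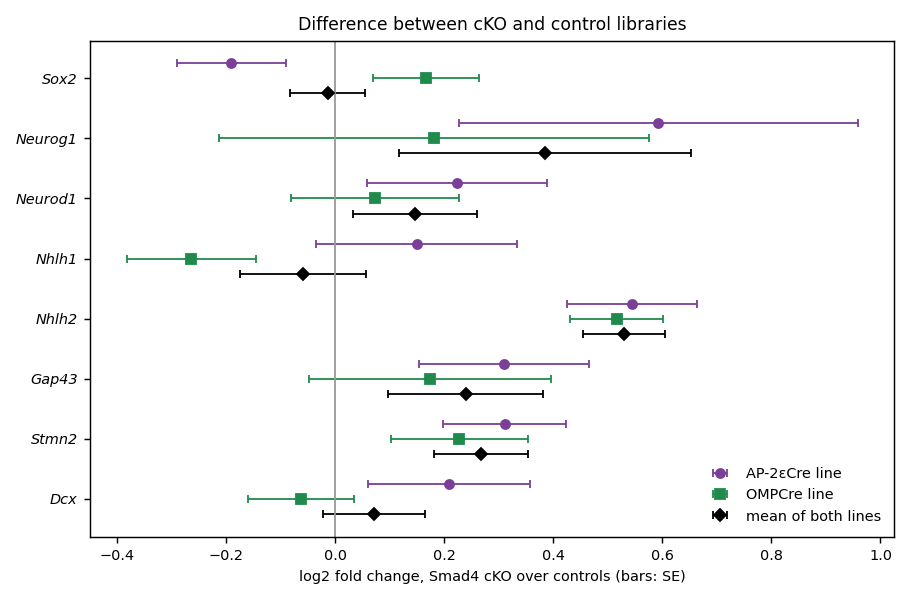
Log2 fold change of cKO over control libraries for the 8 genes in the AP-2εCre line (circles), the OMPCre line (squares) and as the mean of both (diamonds), with bars of 1 SE from edgeR. Nhlh2 lies at 0.54, 0.52 and 0.53, whereas Sox2, Nhlh1 and Dcx lie on opposite sides of 0 in the lines.

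Transcripts of Nhlh2, Gap43, Stmn2 and Dcx that reached 1 TPM in a library, 9 in all, were compared within each line. Of these, 4 had all cKO libraries above all controls in the AP-2εCre line and 1 in the OMPCre line, where 4.51% and 0.415% of all transcripts of that level did. All 3 transcripts of Nhlh2 that are listed had a higher mean in cKO libraries. Nhlh2-202, which held 84.4% of the gene's TPM, had 23.7 ± 6.56 TPM in the AP-2εCre cKO libraries and 13.9 ± 2.73 in the controls (exact permutation p = 0.012). Its level in the OMPCre line was 18.4 ± 4.98 against 13.0 ± 3.75 TPM, where the groups overlapped (exact permutation p = 0.131). Nhlh2-203, with 9.82% of the TPM, had 2.81 ± 0.478 against 1.28 ± 0.295 TPM in the AP-2εCre line and 2.66 ± 0.628 against 1.56 ± 0.210 in the OMPCre line, without overlap in either (exact permutation p = 0.012 for each). Nhlh2-201 had 1.41 against 0.761 TPM in the AP-2εCre line and 1.24 against 1.18 TPM in the OMPCre line. TPM is not corrected for the make-up of each library as CPM after TMM is, and its spread between replicates of Nhlh2 was wider. In the AP-2εCre line TPM gave higher cKO values relative to controls than CPM did. Mean Sox2 there was 40.1 TPM in cKO, 38.3 in Smad4 flox/flox and 37.3 in Het libraries, although its CPM was lowest in cKO libraries. The part of this shift in the transcript differences of that line was not tested. The share of Nhlh2-202 in the gene was 84.7% in cKO and 87.2% in control libraries of the AP-2εCre line and 82.2% against 81.9% in the OMPCre line.

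The rise of Nhlh2 was also measured against other neuronal genes, a choice made after its values were seen. Relative to the summed CPM of 7 genes listed for mature VSNs (Omp, Trpc2, Gnao1, Gnai2, Gng13, Gnb1 and Ano1), Nhlh2 was higher in cKO libraries by 0.40 on the log2 scale in the AP-2εCre line and by 0.48 in the OMPCre line. Gnb1 was the highest of these 7, with a mean of 1285 CPM, so the sum rests largely on it. Omp, which carries OMPCre, is also in the sum. Relative to the summed CPM of the precursor transcription factors listed below, Nhlh2 was higher by 0.35 and 0.37. Each of these 4 differences had an exact permutation p of 0.012, the smallest allowed, and an adjusted p of 0.0408 over 24 such tests of 3 genes. The ratio tests use the same Nhlh2 values that set this gene apart, so they add no separate support for its rise. Relative to 12 other genes of immature neurons, Nhlh2 was higher by 0.44 in the OMPCre line (adjusted p = 0.0408 by the exact permutation test) and by 0.30 in the AP-2εCre line, where cKO and control libraries overlapped (adjusted p = 0.179). Relative to Nhlh1 it was higher by 0.79 in the OMPCre line (adjusted p = 0.0408 by the exact permutation test) and by 0.43 in the AP-2εCre line (adjusted p = 0.381). For Gap43 none of the 8 such ratios passed at an adjusted p of 0.05, and for Stmn2 only its ratio to Nhlh1 in the OMPCre line did.

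**Figure D3:**
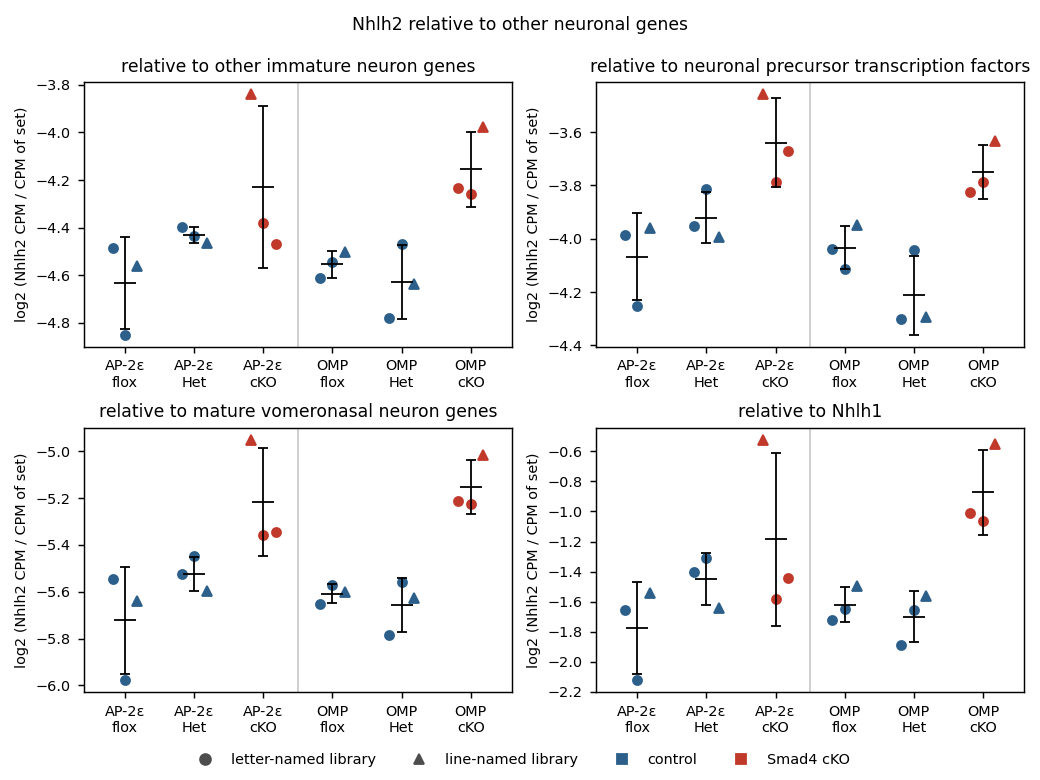
Log2 ratio of Nhlh2 CPM to the summed CPM of 3 gene lists and to Nhlh1 in each library, with the mean ± SD of 3 libraries per group (axes do not start at 0); symbols and colours as in the plot of the 8 genes by library. Red points lie above all controls of their line in the panels of precursor factors and mature neuron genes, and overlap the controls in the AP-2εCre line in the panels of immature neuron genes and of Nhlh1.

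Stmn2 had a positive log2 fold change in both lines without passing the adjusted test. AP-2εCre cKO libraries had 115, 124 and 143 CPM of Stmn2, the Smad4 flox/flox controls 88.1, 109 and 100 CPM and the Het controls 88.7, 118 and 112 CPM. Only the highest of the 6 controls reached above the lowest cKO library. The log2 fold change was 0.31 (SE 0.113, unadjusted p = 0.0197, edgeR adjusted p = 0.393; exact permutation p = 0.0357). OMPCre cKO libraries had 144, 143 and 104 CPM, against 135, 110 and 103 CPM in flox/flox and 108, 108 and 106 CPM in Het controls, so that the third cKO library was among the controls. The log2 fold change there was 0.23 (SE 0.125, edgeR adjusted p = 1). Letter-named libraries gave log2 ratios of 0.41 in the AP-2εCre and 0.32 in the OMPCre line, and line-named ones 0.12 and -0.0014, so the higher OMPCre value was seen in letter-named libraries alone. The mean effect over both lines was 0.27 (SE 0.0854, edgeR adjusted p = 0.325; exact permutation p = 0.00907 over the joint splits). The coding transcript Stmn2-201 had 64.6 ± 8.68 TPM in AP-2εCre cKO libraries and 43.4 ± 8.53 in their controls without overlap (exact permutation p = 0.012), and 55.3 ± 0.621 against 49.0 ± 8.03 TPM in the OMPCre line, where the groups overlapped (exact permutation p = 0.167). In the AP-2εCre line this transcript was 1.49-fold higher by TPM, against 1.24-fold for the gene by CPM.

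Gap43 varied more within groups than most genes of its level. Its within-group SD of 0.32 on the log2 scale was above that of 92.8% of the 3221 genes of like expression. Its CPM in the AP-2εCre line were 42.7, 63.9 and 75.6 (cKO), 50.3, 51.8 and 43.1 (Smad4 flox/flox) and 45.2, 57.4 and 46.1 (Het). Those in the OMPCre line were 71.5, 72.7 and 39.8 (cKO), 73.6, 59.0 and 45.5 (Smad4 flox/flox) and 53.4, 54.1 and 41.2 (Het). The groups overlapped in both lines, with log2 fold changes of 0.31 (SE 0.156, edgeR adjusted p = 0.543) and 0.17 (SE 0.221, adjusted p = 1). The coding transcript Gap43-201 had 49.0 ± 9.58 TPM in AP-2εCre cKO libraries against 32.6 ± 5.04 in controls (exact permutation p = 0.0238) and 40.9 ± 6.29 against 37.3 ± 1.96 TPM in the OMPCre line (exact permutation p = 0.202), with overlap in both. The line-named library was below the mean of the letter-named ones in 6 of 6 groups, by 0.47 ± 0.27 on the log2 scale (mean ± SD over the groups). Within letter-named libraries the AP-2εCre cKO libraries had 63.9 and 75.6 CPM and their 4 controls 45.2 to 57.4 CPM, a log2 ratio of the means of 0.45. How many of all genes separate in this subset, chosen after the data were seen, was not counted. Letter-named OMPCre cKO libraries, at 71.5 and 72.7 CPM, were within the range of their 4 controls, 53.4 to 73.6 CPM, at a log2 ratio of 0.26. Line-named libraries gave ratios of -0.06 and -0.12. What the form of name stands for, and its part in the level of Gap43, was not tested. With the form of name as a term in the edgeR fit, the Gap43 log2 fold change was 0.28 in the AP-2εCre line (adjusted p = 0.411), 0.14 in the OMPCre line (adjusted p = 0.980) and 0.21 as the mean of both (adjusted p = 0.367).

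Nhlh1 overlapped between cKO and control libraries in both lines. AP-2εCre cKO libraries had 117, 196 and 203 CPM of Nhlh1, the Smad4 flox/flox controls 176, 186 and 145 CPM and the Het controls 116, 150 and 159 CPM, a log2 fold change of 0.15 (SE 0.184, edgeR adjusted p = 0.855). The first cKO library, which is line-named, was near the lowest control and the other two were above all controls. The forms of name had opposite signs in that line, with a log2 ratio of 0.35 among letter-named and -0.37 among line-named libraries, so the pooled value mixes them, and leaving out 1 library moved it from 0.0188 to 0.360. OMPCre cKO libraries had 132, 144 and 110 CPM, the Smad4 flox/flox controls 170, 141 and 151 CPM and the Het controls 169, 167 and 130 CPM. The log2 fold change there was -0.26 (SE 0.118, unadjusted p = 0.0499, edgeR adjusted p = 1), and the groups overlapped (exact permutation p = 0.0833). Both forms were negative there, at -0.23 (letter-named) and -0.35 (line-named). Leaving out 1 library moved the OMPCre value from -0.351 to -0.162. The effects of the lines on Nhlh1 differed by 0.41 on the log2 scale (SE 0.231, edgeR adjusted p = 1).

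Dcx was 74.2 ± 7.92 CPM in the AP-2εCre cKO libraries and 64.2 ± 11.9 in their controls (log2 fold change 0.21, SE 0.149, edgeR adjusted p = 0.701). Dcx in the OMPCre line was 67.8 ± 3.38 against 70.8 ± 7.93 CPM (log2 fold change -0.06, SE 0.0971, adjusted p = 1). Unlike Gap43, the line-named library had more Dcx than the letter-named ones in 6 of 6 groups, by 0.18 ± 0.08 on the log2 scale. The log2 ratio of cKO to control was alike in the forms, at 0.21 (letter-named) and 0.21 (line-named) in the AP-2εCre line and -0.05 and -0.08 in the OMPCre line. The short coding transcript Dcx-204, which held 14.5% of the Dcx TPM, had 1.63 ± 0.595 TPM in AP-2εCre cKO libraries and 0.860 ± 0.163 in their controls without overlap (exact permutation p = 0.012). This was 1.89-fold by TPM, against 1.16-fold for the whole gene by CPM. Of all transcripts that reached 1 TPM, 4.51% were higher without overlap in that line. The OMPCre values were 0.921 ± 0.249 against 1.23 ± 0.696 TPM.

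Sox2 had values in the AP-2εCre cKO libraries of 81.5, 63.9 and 77.5 CPM, against 80.3, 85.7 and 92.7 CPM (Smad4 flox/flox) and 76.2, 80.2 and 93.3 CPM (Het) in controls (log2 fold change -0.19, SE 0.10, edgeR adjusted p = 0.561). The OMPCre cKO libraries had 100, 99.1 and 83.5 CPM, against 88.6, 91.8 and 81.2 CPM and 86.4, 85.9 and 70.7 CPM (log2 fold change 0.17, SE 0.0969, adjusted p = 1). Groups overlapped in both lines, in opposite directions. Within letter-named and line-named libraries the log2 ratios were -0.19 and -0.19 in the AP-2εCre line and 0.18 and 0.14 in the OMPCre line. The difference between the effects was -0.36 on the log2 scale (SE 0.139, unadjusted p = 0.0195), and edgeR's adjusted p for it was 1. That comparison called 0% of genes and had 4.91% of genes at an unadjusted p under 0.05, of which Sox2 was the only one of the 8.

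The proneural factors were measured at low depth. Neurog1 had 25 to 220 counts per library. It had 1.70, 1.57 and 1.06 CPM in the AP-2εCre cKO libraries, against 0.554 to 1.48 CPM in the 6 controls (log2 fold change 0.59, SE 0.366, edgeR adjusted p = 0.639). In the OMPCre line it had 1.01, 1.67 and 0.862 CPM against 0.704 to 1.86 CPM (log2 fold change 0.18, SE 0.395, adjusted p = 1). With standard errors of 0.366 and 0.395, a log2 change of the size seen for Nhlh2 would be within 2 standard errors for Neurog1. How much of that error is counting error and how much is spread between libraries was not tested. Neurod1 had 251 to 1206 counts per library. It was 9.50 ± 1.35 CPM in AP-2εCre cKO libraries against 8.13 ± 1.32 in controls (log2 fold change 0.22, SE 0.165) and 9.01 ± 0.984 against 8.57 ± 1.38 CPM in the OMPCre line (log2 fold change 0.07, SE 0.154), neither past the test (edgeR adjusted p = 0.713 and 1). In the AP-2εCre line the log2 ratios within letter-named and line-named libraries were 0.71 and 0.43 for Neurog1 and 0.16 and 0.33 for Neurod1. OMPCre libraries gave opposite signs, with 0.31 and -0.15 for Neurog1 and 0.27 and -0.31 for Neurod1.

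Between the kinds of control, 0 of the 8 genes were called by edgeR in either line, where 0.0487% (AP-2εCre) and 0.0752% (OMPCre) of all genes were. In the OMPCre line Neurog1 and Dcx were higher in Het than in Smad4 flox/flox controls without overlap, as were 6.42% of genes. Neurog1 had 1.86, 0.997 and 1.21 CPM in Het controls against 0.713, 0.772 and 0.704 CPM (log2 difference 0.88, SE 0.389, unadjusted p = 0.0495, adjusted p = 0.833 by edgeR). Dcx had 74.6, 71.0 and 83.9 CPM against 67.8, 60.6 and 66.9 CPM (log2 difference 0.22, SE 0.0913, unadjusted p = 0.0377, adjusted p = 0.829 by edgeR). With 3 libraries against 3 the exact permutation test cannot go below 0.1, which both reached. In the AP-2εCre line all 8 genes overlapped between Het and Smad4 flox/flox controls, against 9.83% of genes that did not. Between the controls of the 2 lines 0 of the 8 were called, where edgeR called 0.0949% of genes, and the log2 differences ran from -0.16 (Gap43) to 0.05 (Nhlh2).

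Other genes of the same steps were counted in lists, which were also chosen with earlier results of these data known. Of 12 other immature neuron genes (Gng8, Stmn1, Stmn3, Stmn4, Tubb3, Crmp1, Dpysl3, Dpysl5, Marcksl1, Dbn1, Mapt and Tubb2b), all of them cytoskeletal or signaling genes of growing neurites, 12 of 12 had a positive log2 fold change in the AP-2εCre cKO, with a median of 0.34 beside 0.00 over all genes tested. An unadjusted p under 0.05 was reached by 7 of them, beside 10.2% of all genes, and 0 were called after adjustment, beside 0.0378%. Dpysl5, a collapsin response mediator of growing axons, had 0.45 (SE 0.0998, edgeR adjusted p = 0.265), and Dbn1, the actin-binding drebrin, 0.40 (SE 0.123, adjusted p = 0.335). In the OMPCre cKO the list's median was 0.13, with 8 of 12 positive and 1 at an unadjusted p under 0.05 (3.95% of all genes), the stathmin Stmn4 (0.40, SE 0.115, edgeR adjusted p = 1). Mapt, which encodes tau, came next there, at 0.17 (SE 0.0842). The summed CPM of the list was 1167 to 1650 in AP-2εCre cKO libraries and 923 to 1306 in their controls. Its mean was 1220 in Smad4 flox/flox, 1118 in Het and 1394 in cKO libraries of that line. In Het against Smad4 flox/flox controls 10 of 12 genes were negative (median -0.11, 1 at an unadjusted p under 0.05, as were 5.47% of all genes).

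Of 12 precursor transcription factors (Neurog2, Neurod2, Neurod4, Insm1, Ebf1, Ebf2, Ebf3, Ebf4, Lhx2, Sox4, Sox11 and Eya2), 9 passed the filter on low counts in each line. In the AP-2εCre cKO 8 of the 9 were positive (median 0.20) and 4 had an unadjusted p under 0.05 (10.2% of all genes), led by Sox4, a factor of newly formed neurons (0.31, SE 0.0897, edgeR adjusted p = 0.317), and Lhx2, a LIM homeobox factor of olfactory neurons (0.34, SE 0.113, adjusted p = 0.353). In the OMPCre cKO 7 of 9 were positive (median 0.14) and 3 had an unadjusted p under 0.05 (3.95% of all genes), led by Ebf3 (0.31, SE 0.0780, edgeR adjusted p = 0.909) and Sox11 (0.19, SE 0.0709, adjusted p = 1). No gene of the list was called in either line. Its summed CPM in the OMPCre line was 778 to 849 in Smad4 flox/flox, 865 to 901 in Het and 931 to 951 in cKO libraries. In the AP-2εCre line it was 775 to 885, 679 to 850 and 896 to 949.

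Of 9 progenitor and basal cell genes, which include Kit, Hes6, Pax6, Lgr5, Trp63, Krt5 and Krt14, 8 had a negative log2 fold change in each cKO, with medians of -0.15 and -0.19. At an unadjusted p under 0.05 there was 1 gene, with a positive value, in the AP-2εCre cKO and 0 in the OMPCre cKO. Of all genes, 10.2% and 3.95% were at such a p. In the AP-2εCre line the mean summed CPM was 296 in Smad4 flox/flox, 398 in Het and 278 in cKO libraries, and 7 of 9 genes were positive in Het against Smad4 flox/flox controls (median 0.23). In the OMPCre line the lowest p were those of Krt14 (-2.29, SE 1.08) and Krt5 (-1.13, SE 0.624), both keratins of basal cells. Their highest values of the 18 libraries, 343 CPM of Krt14 and 504 CPM of Krt5, were in the same Smad4 flox/flox library of that line, against means of 48.9 and 130 CPM over all 18. The summed CPM of the list was 292 to 1051 in the Smad4 flox/flox controls, 260 to 331 in Het controls and 266 to 303 in cKO libraries of the OMPCre line, and 7 of 9 genes were negative in Het against Smad4 flox/flox controls (2 at an unadjusted p under 0.05, as were 5.84% of all genes). Of 10 Id, Notch and Hes genes, which include the Id genes that BMP signaling induces and that restrain proneural factors, 9 were tested. Their medians were -0.06 and -0.11, with Hes1 at -0.34 (SE 0.145) and Id2 at -0.25 (SE 0.112) in the AP-2εCre cKO and Id4 at -0.22 (SE 0.0817) and Id1 at -0.25 (SE 0.124) in the OMPCre cKO. Hes1 and Id4 had an unadjusted p under 0.05 there, as had 10.2% (AP-2εCre) and 3.95% (OMPCre) of all genes. By edgeR, 0 of the list were called in either line.

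Proliferation genes had opposite signs in the lines. All 11 (Mki67, Top2a, Pcna, Mcm2, Mcm3, Mcm5, Cdk1, Ccnb1, Ccna2, Aurkb and Birc5) had a positive log2 fold change in the AP-2εCre cKO (median 0.36, 1 at an unadjusted p under 0.05, beside 10.2% of all genes) and a negative one in the OMPCre cKO (median -0.51, 9 at an unadjusted p under 0.05, beside 3.95% of all genes). Mki67, which encodes the Ki67 antigen of cycling cells, had 0.63 (SE 0.225, edgeR adjusted p = 0.383) in the AP-2εCre cKO, and Mcm2 0.36 (SE 0.185). The replication licensing genes Mcm3 and Mcm5 had -0.59 (SE 0.117, edgeR adjusted p = 0.529) and -0.55 (SE 0.132, adjusted p = 0.909) in the OMPCre cKO. For the difference between the effects of the lines, 11 of 11 were positive (median 0.85). Of these, 10 had an unadjusted p under 0.05, beside 4.91% of all genes, and 0 were called, beside 0%. Their summed CPM was 332 to 378 in AP-2εCre cKO libraries against 181 to 359 in controls, and 155 to 222 in OMPCre cKO libraries against 240 to 298 in controls. Between the controls of the AP-2εCre line all 11 were also positive, for Het against Smad4 flox/flox (median 0.47), with 2 at an unadjusted p under 0.05, as were 5.47% of all genes, and 0 called. The summed CPM of those controls overlapped (181 to 253 in Smad4 flox/flox and 197 to 359 in Het), and its mean was 226 in Smad4 flox/flox, 296 in Het and 351 in cKO libraries. In the OMPCre line 6 of 11 were positive in that comparison (median 0.02). Summed cell cycle genes had a higher mean than controls in the AP-2εCre cKO, with overlap, and a lower one in the OMPCre cKO. Whether their level bears on that of Nhlh2, which was higher in both cKO groups, was not tested.

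**Figure D4:**
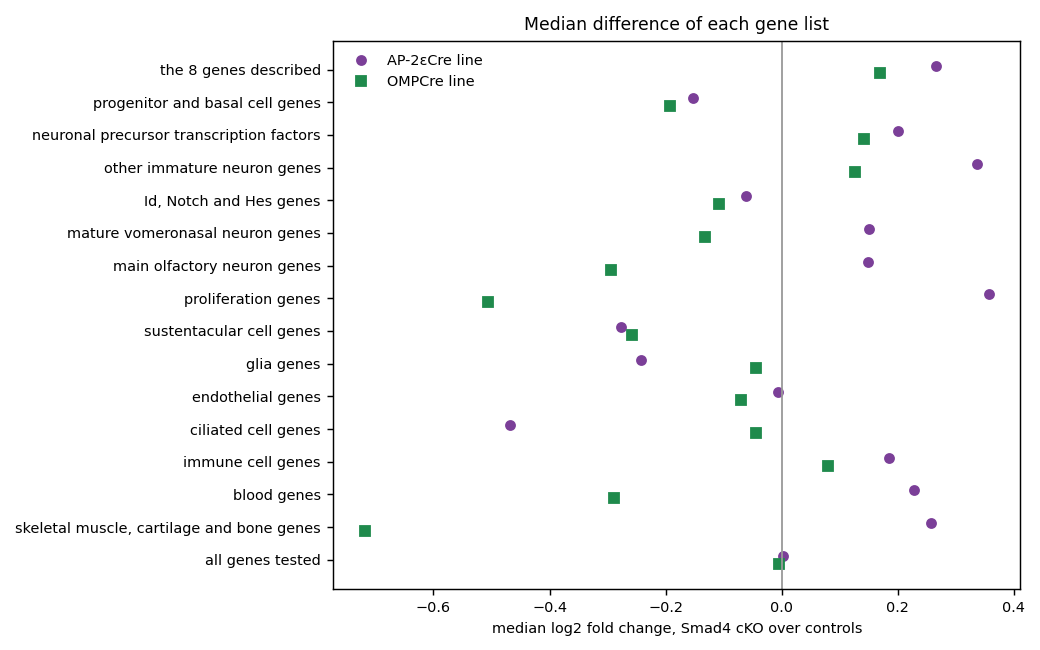
Median log2 fold change of cKO over control libraries of the 8 genes and of 14 gene lists, beside all genes tested, in the AP-2εCre line (circles) and the OMPCre line (squares). Lists of neuronal precursor and immature neuron genes lie to the right of 0 in both lines, and proliferation genes at 0.36 and -0.51.

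Markers of other cells of the organ were counted in the same way. In the AP-2εCre cKO all 5 sustentacular (supporting) cell genes had a negative log2 fold change (median -0.28, 2 at an unadjusted p under 0.05, led by Cyp2a5 at -1.37, SE 0.439, and Sec14l3 at -0.71, SE 0.242). So had all 5 ciliated cell genes (median -0.47, 3 at an unadjusted p under 0.05, led by Dnah5 at -0.52, SE 0.139, and Tekt1 at -0.47, SE 0.149). Of all genes tested in that comparison, 10.2% were at such a p. The summed CPM of the sustentacular list was 1318 to 2051 in those cKO libraries and 1776 to 4009 in controls, and that of the ciliated list 287 to 460 against 468 to 596. In the OMPCre cKO those lists had medians of -0.26 and -0.04, each with 0 genes at an unadjusted p under 0.05, beside 3.95% of all genes. Genes of mature VSNs had medians of 0.15 and -0.13, led by Ano1 (-0.41, SE 0.120) and Gnai2 (0.28, SE 0.0955) in the AP-2εCre cKO and Gnai2 (0.19, SE 0.0800) and Gng13 (-0.39, SE 0.196) in the OMPCre cKO. Genes of the main olfactory epithelium, which can be dissected with the organ, had medians of 0.15 and -0.29, led by Rtp1 (0.39, SE 0.107) and Adcy3 (0.25, SE 0.107) in the AP-2εCre cKO and Stoml3 (-0.65, SE 0.340) and Gnal (-0.78, SE 0.416) in the OMPCre cKO. Between the OMPCre controls, all 7 of these olfactory genes were positive in Het against Smad4 flox/flox (median 0.54), with 5 at an unadjusted p under 0.05, as were 5.84% of all genes, and 0 called. Sustentacular and ciliated genes with the smallest p in the OMPCre cKO were Cyp2g1 (-0.40, SE 0.372), Ermn (-0.35, SE 0.327), Ccdc153 (-0.19, SE 0.440) and Dnah5 (0.05, SE 0.225).

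Immune cell genes had medians of 0.19 and 0.08, with Csf1r at 0.25 (SE 0.0858) and Cd68 at 0.41 (SE 0.151) in the AP-2εCre cKO and C1qa at 0.21 (SE 0.128) and Ptprc at -0.14 (SE 0.190) in the OMPCre cKO. Glia genes had medians of -0.24 and -0.05, with Erbb3 at -0.34 (SE 0.102) and Sox10 at -0.39 (SE 0.150) in the AP-2εCre cKO. In the OMPCre cKO 5 of 6 were negative, 1 of them at an unadjusted p under 0.05 (3.95% of all genes). Endothelial genes had medians of -0.01 and -0.07, with Vwf at -0.47 (SE 0.0752) and Pecam1 at 1.31 (SE 0.740) in the AP-2εCre cKO and Cdh5 at -0.12 (SE 0.103) and Vwf at -0.09 (SE 0.0963) in the OMPCre cKO. Blood genes had medians of 0.23 and -0.29, with Alas2 at 0.38 (SE 0.174) and Hba-a1 at -0.28 (SE 0.186) in the AP-2εCre cKO and Alas2 at -0.31 (SE 0.135) and Hbb-bt at -0.63 (SE 0.292) in the OMPCre cKO. Skeletal muscle, cartilage and bone genes had medians of 0.26 and -0.72, with Bglap at 0.49 (SE 0.240) and Sp7 at 0.26 (SE 0.156) in the AP-2εCre cKO and Acta1 at -4.80 (SE 2.29) and Col2a1 at -1.27 (SE 0.650) in the OMPCre cKO. Acta1 had 40.1 CPM in 1 Smad4 flox/flox library of that line, against a mean of 2.53 CPM over the 18 libraries. No gene of these lists was called by edgeR in a cKO comparison. Between the controls of the lines only the red cell gene Alas2 was called, with a log2 difference of -0.90 for AP-2εCre over OMPCre controls (edgeR adjusted p = 0.0106). The part of these cells in the differences of the 8 genes was not tested.

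Across libraries, deviations from the group mean on the log2(CPM + 1) scale were compared for the 28 pairs of the 8 genes. Of these, 20 were positive, with a median Pearson r of 0.15, and 2 passed a permutation test within groups after adjustment over the 28. Gap43 deviated with Stmn2 (r = 0.80, permutation adjusted p = 0.0324 over 18 libraries; Spearman rho = 0.80, adjusted p = 0.0561) and with Nhlh1 (r = 0.79, permutation adjusted p = 0.0324; rho = 0.74, adjusted p = 0.0561). Without the 2 libraries farthest from the median of Gap43 or Nhlh1, taken as the first gene of the pair, r was 0.71 and 0.75. Within the 12 letter-named libraries these values were 0.90 and 0.90, for which 64 rearrangements allow no p under 0.0312 (permutation p = 0.125 and 0.0625). Nhlh2 did not go with them over all libraries, at r = -0.13 with Gap43, -0.05 with Stmn2 and -0.04 with Nhlh1 (permutation adjusted p = 0.876, 0.931 and 0.931). Within letter-named libraries its r was 0.61 with Nhlh1, 0.69 with Gap43 and 0.38 with Stmn2 (permutation p = 0.312, 0.156 and 0.625), none past the test. Dcx had r = -0.24 with Gap43, -0.13 with Nhlh1 and 0.31 with Stmn2 over all libraries. Within letter-named libraries these were 0.85, 0.87 and 0.88 (unadjusted permutation p = 0.125, 0.156 and 0.0312).

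**Figure D5:**
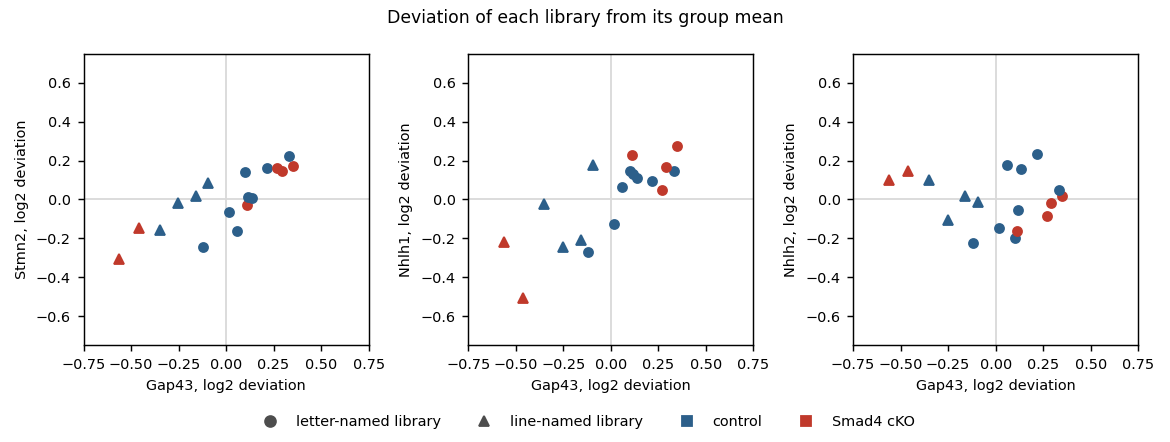
Deviation of each library from its group mean on the log2(CPM + 1) scale, for Gap43 against Stmn2, Nhlh1 and Nhlh2; symbols and colours as in the plot of the 8 genes by library. Gap43, Stmn2 and Nhlh1 rise together, the triangles of the line-named libraries lie on the low side of Gap43, and Nhlh2 shows r = -0.13 with Gap43.

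The genes whose deviations were most like those of each of the 8, among 12872 with a mean of at least 5 CPM, are a description of these 18 libraries. For Nhlh1 they were Calm3 (r = 0.95), the tubulin gene Tuba1a (0.95) and Gng8 (0.95), a G protein gene of immature VSNs. For Nhlh2 they were the vomeronasal receptor genes Vmn1r171 (0.86) and Vmn1r217 (0.86) and the ubiquitin ligase gene Rnf180 (0.85). For Gap43 they were Trappc4 (0.94), Polr1c (0.94) and Arl8a (0.94), and for Stmn2 they were 2700062C07Rik (0.85), Armh3 (0.84) and the tubulin gene Tubb2b (0.83). For Dcx they were Rgs9 (0.94), Hrk (0.91) and Vmn1r88 (0.90), and for Sox2 they were Elf3 (0.87), Rac3 (0.86) and Cdv3 (0.84). For Neurog1, among 12873 candidates, they were Sox11 (0.83), Oxsr1 (0.81) and Vmn2r72 (0.80). For Neurod1 they were Gpr137b-ps (0.93), Grik3 (0.83) and Gm48443 (0.82).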

How the data were processed

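PolyA+ RNA of whole VNOs was sequenced as single reads from directional libraries, and the authors quantified the reads with salmon 0.14.0. The deposited values are an estimated count per transcript, not normalized, and a TPM per transcript, which the authors' tool scales by length to a sum of 1000000 per library. All transcripts are full-length models, with lengths that are a multiple of 3 in 35.5% of cases, although the methods name a coding-sequence assembly.

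Gene names came from GENCODE vM21 (GRCm38), which matched 116072 of 116248 transcripts. Transcripts without a match (176) took up to 0.0324% of the counts in any 1 library. Estimated counts were summed per gene and rounded, and tested in edgeR 4.0.16 (R 4.3.3; TMM, filterByExpr, two-sided quasi-likelihood test, Benjamini-Hochberg adjustment over all genes tested). The threshold for a call was an adjusted p of 0.05, and all 8 genes passed the filter in every comparison. The cKO of a line was set against its 6 controls (Het and Smad4 flox/flox), as the study did. Fits of 1 line used its 9 libraries, and the mean and the difference of the effects all 18. Exact permutation tests are two-sided on the difference of mean CPM, and on log2(CPM + 1) for the mean effect. The labels call the libraries biological replicates.

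The 8 genes and all lists were chosen with earlier results of these data known. Named genes are the 8, each called list gene, the 2 genes of smallest p per list in each cKO comparison, the 3 genes most like each of the 8, and Smad4, Tfap2e and Omp. Some list genes that this rule names are not reported here. A library with the title of a Het and the genotype label of a cKO was put in no group. Alternatives were DESeq2 1.42.0, other normalization, filter and counting, a replicate block, a term for the form of name, other controls, and each library left out. The tests were tested on simulated data. Figures used matplotlib 3.10.9. Replicate numbers were not taken to pair the libraries, since not every same-number correlation was above 0.1 (-0.34 to 0.21 in the AP-2εCre and 0.04 to 0.56 in the OMPCre line).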

Additional observations from a re-analysis of the deposited data

Results flagged for a closer look

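3 results stood apart. Among the 6 AP-2εCre controls, the lowest Neurod1 library (Smad4 flox/flox replicate 2) had 5.57 CPM, well below the others at 7.93 to 9.07 CPM. Among the 6 OMPCre controls, the highest Stmn2 library (Smad4 flox/flox replicate 1) had 135 CPM, above the others at 103 to 110 CPM. These are 2 of 16 sets of 6 controls tested by Dixon's criterion, which chance meets in about 1 of 20 sets. In the library without a group, Dcx had 85.7 CPM, above the 6 AP-2εCre controls at 52.6 to 79.7 CPM and the 3 cKO libraries at 66.8 to 83.0 CPM.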

How the results depend on the processing

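The mean rise of Nhlh2 over both lines kept its direction in all settings tried (0.46 to 0.57 on the log2 scale). It passed the test in 6 of 7 other settings and in all 18 fits that each left out 1 library (adjusted p 0.00257 to 0.0367). With letter-named libraries alone, a setting chosen after seeing the data, it was 0.46 with adjusted p = 0.304, so 0 of the 8 genes were called there and 11 genes in all. Within a line, Nhlh2 passed only with DESeq2 among the settings tried, which made it the 1 gene of the 8 called in each. Replicate numbers were shared by the groups, and 1 of 9 AP-2εCre and 7 of 9 OMPCre libraries were most like a library of their own number, with a mean same-number correlation of -0.09 and 0.26. With a replicate block Nhlh2 had a mean effect of 0.53 (adjusted p = 0.037), and the genes called were 2 in the AP-2εCre cKO, 3 for AP-2εCre Het and 7 for OMPCre Het against Smad4 flox/flox controls, where Nhlh1 had -0.0100.

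Counts of all genes called depended on the setting more than the values of the 8 genes did, and the cause was not tested. DESeq2 called 309, 42, 196 and 17 genes in the AP-2εCre cKO, the OMPCre cKO, their mean and their difference, against 7, 0, 18 and 0 with edgeR. It called 123 and 155 genes between Het and Smad4 flox/flox controls of the AP-2εCre and the OMPCre line (edgeR 9 and 14) and 98 between the controls of the lines (edgeR 17). Counts from length-scaled TPM gave 2 genes in the AP-2εCre cKO, 6 in the mean, 4 in the AP-2εCre Het and 11 in the line comparison. They also gave differences between the lines of -0.0101 for Nhlh2 and -0.155 for Stmn2. The form of name as a term gave 2, 1 and 38 genes in the AP-2εCre cKO, the OMPCre cKO and their mean, 5 in the AP-2εCre Het comparison, and -0.0120 for Nhlh1 between the OMPCre controls. A filter of at least 1 count gave 14 in the AP-2εCre Het comparison. Smad4 flox/flox controls alone gave 24 genes in the AP-2εCre cKO and a Dcx value of 0.0553 in the OMPCre cKO. Het controls alone gave 11 genes in the OMPCre cKO, with -0.195 for Neurog1 and -0.0701 for Neurod1, and 1 fit of all 18 libraries gave 8. Over the settings other than leaving out 1 library, Neurog1 in the OMPCre cKO reached up to 0.693 and Neurod1 up to 0.268. Letter-named libraries alone gave 2 genes in the AP-2εCre cKO, a mean effect of 0.0597 for Nhlh1, and differences between the lines of -0.108 for Neurod1 and -0.00428 for Nhlh2.

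When each library was left out in turn, the genes called ranged from 2 to 8 in the AP-2εCre cKO, 0 to 2 in the OMPCre cKO, 8 to 33 in the mean (8 without OMPCre cKO replicate 3, 11 without AP-2εCre cKO replicate 3, 33 without AP-2εCre Het replicate 1), 0 to 1 in the difference, 3 to 21 in the AP-2εCre Het and 6 to 19 in the OMPCre Het comparison. Gap43 ran from 0.125 to 0.506 in the AP-2εCre and from 0.0355 to 0.406 in the OMPCre cKO, and Stmn2 from 0.142 to 0.366 in the latter, without a change of sign. In the AP-2εCre and the OMPCre cKO, Sox2 ran from -0.266 to -0.0934 and from 0.112 to 0.247, Neurod1 from 0.0966 to 0.287 and from 0.00827 to 0.160, and Dcx from 0.123 to 0.280 and from -0.105 to -0.00872. Neurog1 ran from 0.458 to 0.775 in the AP-2εCre cKO. Values not past the test changed sign as follows. In the OMPCre cKO, Neurog1 ran from -0.154 to 0.426. In the mean effect, Sox2 ran from -0.0503 to 0.0355 and Nhlh1 from -0.126 to 0.0472. In the difference between the lines, Nhlh2 ran from -0.0476 to 0.105, Gap43 from -0.0990 to 0.337 and Stmn2 from -0.0576 to 0.160. Between the AP-2εCre controls, Neurog1 ran from -0.330 to 0.338, Neurod1 from -0.116 to 0.206, Nhlh2 from -0.0685 to 0.163, Gap43 from -0.0900 to 0.0891 and Sox2 from -0.143 to 0.00636. Between the OMPCre controls, Stmn2 ran from -0.190 to 0.00718 and Nhlh1 from -0.0678 to 0.124. Between the lines' controls, Nhlh1 ran from -0.0548 to 0.0763, Neurod1 from -0.134 to 0.00996, Sox2 from -0.0371 to 0.0401, Nhlh2 from -0.00783 to 0.0931 and Neurog1 from -0.295 to 0.120. The lowest depth of the 8 genes was that of Neurog1, at 25 to 220 counts per library.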

Other observations

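The library of the AP-2εCre line whose labels name both a Het and a cKO was normalized together with the other 18, and only its values are given. It had 55.4 CPM of Nhlh2, inside the range of the 6 AP-2εCre controls (42.8 to 60.7 CPM) and below that of the 3 cKO libraries (65.6 to 82.0 CPM). Its Stmn2, at 93.6 CPM, was in the range of the controls (88.0 to 119 CPM), and its Nhlh1, at 139 CPM, was in the range of both sets. Gap43, at 42.8 CPM, was just below the lowest control (43.3 CPM) and the lowest cKO library (42.9 CPM). Sox2, at 75.8 CPM, was just below the lowest control (76.1 CPM) and inside the range of the cKO libraries (64.0 to 82.0 CPM). Neurog1, at 0.773 CPM, and Neurod1, at 8.50 CPM, were within the range of the controls and below the lowest cKO library (1.06 and 8.64 CPM). It is a line-named library.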
